A study of Mus musculus with 4 samples.

Results

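Non-cycling Sertoli cells poor in *Tnni3* were 4720 of the 17432 cell barcodes kept from testes of mice at postnatal day 8. The control library held 1795 of them and the *Cnot3*-cKO library 2925. A barcode was kept with at least 8000 unique molecular identifiers (UMIs, each 1 captured RNA molecule) and at most 20% of them from mitochondrial genes. A Sertoli cell needed at least 0.3% of its UMIs from *Cst12*, *Cst9*, *Rhox8*, *Amh* and *Aard*, under 0.3% from 4 collagen and stromal genes (*Col1a1*, *Col1a2*, *Col3a1*, *Dcn*) and under 10 UMIs of the germ cell genes *Ddx4* and *Dazl*. It was non-cycling with under 3 UMIs of *Mki67* and *Top2a*. Within these cells the members were chosen by the summed UMI share of *Tnni3*, *Tesc*, *Defb36*, *Tmem114* and *Cidea*. The lower 75% by this share over both libraries together were the *Tnni3*-poor cells. The upper 25%, the *Tnni3*-rich cells, served as the comparison.

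The study asked how loss of CNOT3, a subunit of the CCR4-NOT complex that shortens the poly(A) tails of mRNAs, affects spermatogonia. The labels give the genotypes as wild-type (control) and *Cnot3* KO (*Cnot3*-cKO). By the paper, neonatal controls were *Cnot3* flox/flox littermates and *Cnot3*-cKO mice were *Cnot3* flox/flox with *Ddx4*-creER. In the latter, Cre recombinase is made under the germ cell gene *Ddx4* and acts once 4-hydroxytamoxifen (4-OHT) is given, so the deletion was aimed at germ cells and not at Sertoli cells. Both groups received 4-OHT from postnatal day 1. The labels give the last day of injection as postnatal day 1, 2, 3 or 4 for the 4 samples, whereas the methods state day 3. Suspended cells had been sorted by flow cytometry for CD9 and THY1 to enrich for germ cells. Shares of cell classes given here are thus those after the sort and not those of the testis. Each genotype has 2 labelled samples, but the values come as 1 matrix per genotype with no map from cells to samples, and the number of animals is not given in the sources used here. There was thus 1 library per genotype, and no replicate check of any difference between genotypes. Intervals are exact 95% intervals that cover counting error only.

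Sertoli cells are the somatic cells of the seminiferous tubule that surround and feed the germ cells. They secrete GDNF and KIT ligand, which act on spermatogonia, and they make retinoic acid, which starts the differentiation of spermatogonia. In the first days after birth they still make anti-Müllerian hormone and divide, and they stop dividing as they mature. *Tnni3* encodes the cardiac form of the troponin inhibitory subunit and *Cidea* a protein of lipid droplets.

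The libraries held 181550221 UMIs (control) and 168770743 UMIs (*Cnot3*-cKO). *Tnni3*-poor cells had a median of 12904 UMIs, 3892 genes and 10.3% mitochondrial UMIs in control, and 12551 UMIs, 3866 genes and 10.6% in *Cnot3*-cKO. Germ cells were 14.5% of kept barcodes in control and 5.48% in *Cnot3*-cKO. At 8000 or more UMIs, 18 barcodes occurred in both libraries, 2 of them *Tnni3*-poor cells on both sides. The given markers were *Amh*, *Cst9*, *Cited1* and *Clu*, of which *Amh* and *Cst9* belong to the rule for a Sertoli cell, so their presence was largely fixed by it. *Cited1* stood at 817 UMIs per 1000000 UMIs of the class (CPM) in control and 838 CPM in *Cnot3*-cKO, against 9.06 CPM in control interstitial cells. *Clu* stood at 2978 and 3069 CPM, against 46.3 CPM there. These 2 genes were not used by the rule.

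**Figure D1:**
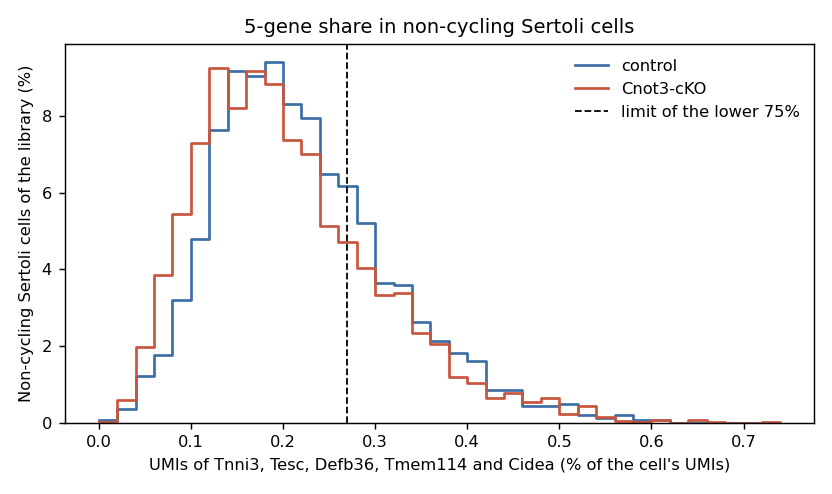
Distribution of the 5-gene share (horizontal axis, percent of a cell's UMIs) over the non-cycling Sertoli cells of each library (vertical axis, percent of the library's cells, in steps of 0.02%), with the limit of the lower 75% dashed. The share formed 1 peak with a long upper tail, the limit of 0.270% fell on its slope, and the *Cnot3*-cKO curve lay to the left of the control curve.

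The 5-gene share did not fall into separate groups. It ran from 0.00866% to 0.729% with 25% of the cells under 0.141%, the median at 0.196% and the limit at 0.270%. The last cell inside the limit had 0.26978% and the first outside 0.26983%. At the median depth the limit amounted to 34.1 UMIs, with a counting SD of 5.84 UMIs. Within 10% of the limit lay 483 *Tnni3*-poor and 403 *Tnni3*-rich cells, so many cells near it could stand on either side by counting alone. *Tnni3*-poor cells were 72.5% (70.7 to 74.2%) of the non-cycling Sertoli cells in control and 76.6% (75.3 to 78.0%) in *Cnot3*-cKO. Cut into 4 equal bins by the share, the lowest bin held 482 control and 1092 *Cnot3*-cKO cells, the second 646 and 927, and the third 667 and 906. The *Cnot3*-cKO library was therefore weighted to the low end of the share, and median shares were 0.177% and 0.164%. Of the 5 genes that made the share, *Tnni3* stood at 797 and 770 CPM in *Tnni3*-poor cells, *Tesc* at 319 and 267, *Defb36* at 289 and 222, *Tmem114* at 290 and 322 and *Cidea* at 65.1 and 49.9. In *Tnni3*-rich cells *Tnni3* stood at 1564 and 1685 CPM. *Tnni3*-poor cells did not lack it, since 97.1% of them held at least 1 UMI of it in each library.

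*Tnni3*-poor cells were set apart from non-Sertoli cells by *Fshr*, the receptor for follicle-stimulating hormone, by the ligand gene *Fgf18* and by *Foxq1*, a forkhead transcription factor. These were among the 12 genes with the highest level relative to the highest of interstitial cells, germ cells and empty barcodes. *Fshr* stood at 16.1 CPM (control) and 20.1 CPM (*Cnot3*-cKO), against 0.0892 and 0.219 CPM in interstitial cells and 2.32 and 5.51 CPM in empty barcodes, which hold free RNA. *Fgf18* stood at 22.3 and 22.7 CPM, against 1.34 and 1.23 in interstitial cells. *Foxq1* stood at 154 and 129 CPM, against 1.85 and 1.46 in interstitial cells. The other 9 were *Chp2*, *Ptpre*, *Celsr1*, *Wfdc6a*, *A930002C04Rik*, *Slc13a2os*, *Gm14226*, *Gm35533* and *Gm37350*. The smaller of the ratios in both libraries lay between 3.30 and 4.46 for the 12. For all 12 the highest of the other levels was that of empty barcodes, in both libraries.

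*Tnni3*-poor and *Tnni3*-rich cells were cut on their own expression, so the ratios between them describe the cells and were not tested. Of 9468 genes for which both classes together held 200 UMIs or more in each library, 67 (0.708%) were higher in *Tnni3*-poor cells by over 1.5-fold in both libraries and 131 (1.38%) were lower. The median log2 ratio over these genes was 0.02 in each library. The genes furthest apart included *Rdh10*, *Tgm2* and *Fstl3* on the low side and *Slc13a2*, *Tspan15* and *Fry* on the high side. The low side held larger ratios than the high side.

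Of the retinoid genes, *Rdh10* and *Stra6* were lower and *Cyp26b1* higher in *Tnni3*-poor cells. *Rdh10*, which makes the first oxidation step from retinol, stood at 8.43 CPM in *Tnni3*-poor and 39.2 CPM in *Tnni3*-rich control cells, and at 8.39 and 51.7 CPM in *Cnot3*-cKO. The log2 ratio of poor over rich was -2.22 in control and -2.62 in *Cnot3*-cKO. *Stra6*, the retinol transporter of the cell membrane, had log2 ratios of -0.85 and -1.23. *Cyp26b1*, whose product degrades retinoic acid, was higher in *Tnni3*-poor cells, at 17.6 against 8.86 CPM in control and 18.7 against 8.79 CPM in *Cnot3*-cKO. *Aldh1a1*, a retinaldehyde dehydrogenase, was the most abundant gene of the list and stood higher in *Tnni3*-poor cells too, at 1004 against 708 CPM and 1096 against 641 CPM, which passed 1.5-fold in the *Cnot3*-cKO library alone. In all, 3 of the 6 retinoid genes compared were past 1.5-fold lower in both libraries and 1 past it higher. *Cyp26b1* was more abundant in interstitial cells, at 168 CPM in control.

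**Figure D2:**
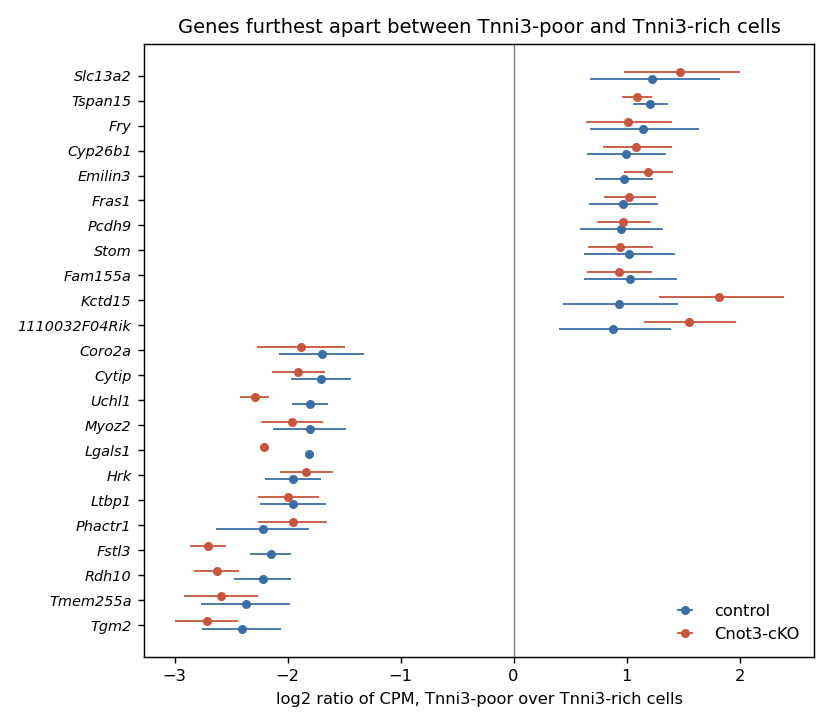
Log2 ratio of CPM, *Tnni3*-poor over *Tnni3*-rich cells (horizontal axis), for 11 of the 12 genes furthest above and the 12 furthest below 0 in both libraries, leaving out the genes of the sorting rule. Points are 1 library each and bars are 95% counting intervals. The 12 lower genes lie between -1.70 and -2.72 and the 11 higher genes between 0.88 and 1.81.

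The lowest ratio was that of *Tgm2*, a transglutaminase that crosslinks proteins, with log2 values of -2.41 and -2.72. It stood at 4.34 and 4.20 CPM in *Tnni3*-poor cells and at 22.98 and 27.6 CPM in *Tnni3*-rich cells. *Tmem255a*, a membrane protein gene, had -2.37 and -2.59, *Fstl3*, which binds activin, -2.15 and -2.70, and *Ltbp1*, which binds latent TGF-beta, with -1.95 and -1.99. *Hrk*, a BH3-only gene of cell death, had -1.95 and -1.83. *Lgals1*, which encodes galectin-1, was the most abundant of these genes and stood at 435 and 273 CPM in *Tnni3*-poor cells against 1530 and 1261 CPM in *Tnni3*-rich cells. *Phactr1* and *Coro2a*, both of which act on actin, *Myoz2*, *Cytip* and *Uchl1* completed the 12. *Uchl1* also marks spermatogonia. The other 9 germ markers did not separate the classes. Their summed level was 3.99% of that in empty barcodes in poor and 3.91% in rich control cells, and 3.69% and 3.41% in *Cnot3*-cKO.

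On the high side, *Slc13a2*, a sodium-coupled dicarboxylate transporter, had log2 ratios of 1.23 and 1.47. Its level was low, at 7.94 and 8.76 CPM in *Tnni3*-poor cells. *Tspan15*, a tetraspanin, was the most abundant of the higher 12, at 103 and 94.5 CPM against 44.6 and 44.4 CPM in *Tnni3*-rich cells. *Emilin3* and *Fras1*, which encode extracellular matrix proteins, had 0.97 and 1.19 and 0.97 and 1.02. *Pcdh9*, a protocadherin, had 0.95 and 0.97. *Fry*, *Cyp26b1*, *Stom*, *Fam155a*, *Kctd15* and *1110032F04Rik* were also among the 12.

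Of 16 listed genes of Sertoli identity, 1 was past 1.5-fold, against 0.708% of all genes higher and 1.38% lower. It was *Nr0b1*, which encodes the nuclear receptor DAX1. It stood lower in *Tnni3*-poor cells, at 39.6 against 112 CPM in control and 38.9 against 123 CPM in *Cnot3*-cKO. *Sox9* and *Wt1*, the transcription factors that hold Sertoli identity, had log2 ratios of -0.19 and -0.29 and of 0.15 and 0.06. *Hsd17b1*, which reduces androstenedione and estrone, was higher at 0.57 and 0.63, under 1.5-fold in control. Among 12 secreted products, *Serpina5*, the protein C inhibitor, was higher at 0.84 and 1.35, while *Plat*, tissue plasminogen activator and a protease that such serpins can block, was lower at -1.68 and -1.95. Of 8 genes of glucose and lactate use, *Slc16a1*, a monocarboxylate transporter, was lower at -0.93 and -1.20. Of 5 Notch and hedgehog genes, *Notch1* was lower at -0.77 and -0.80. The Leydig list had 1 gene with enough UMIs, *Star*, which brings cholesterol into mitochondria and was lower at -1.08 and -0.93. No gene passed in either direction among the 11 glutathione, 11 CCR4-NOT, 13 junction, 12 cholesterol and lipid, 11 phagocytosis and lysosome, 10 immediate early, 8 niche factor, 7 cell cycle and 4 maturation genes compared.

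These levels graded across the 3 bins of *Tnni3*-poor cells as well, before the limit. In control, *Rdh10* stood at 3.62, 6.9, 13.3 and 39.2 CPM from the lowest bin to the highest, and in *Cnot3*-cKO at 3.83, 5.996, 16.3 and 51.7 CPM. *Lgals1* stood at 213, 413, 613 and 1530 CPM in control and at 132, 234, 479 and 1261 CPM in *Cnot3*-cKO. *Cyp26b1* went the other way, at 21.6, 17.5, 15.1 and 8.86 CPM in control and 22.2, 19.7, 13.5 and 8.79 CPM in *Cnot3*-cKO. *Serpina5* went from 65.5 to 33.0 CPM in control and from 125 to 43.1 CPM in *Cnot3*-cKO. The largest step for *Rdh10*, *Lgals1* and *Nr0b1* lay between the third and the fourth bin, at the limit. *Amh* stayed between 558 and 575 CPM over the 3 control bins of *Tnni3*-poor cells and stood at 491 CPM in the fourth. Median depth was 12574 to 13063 UMIs over the control bins and 12468 to 12619 UMIs over the *Cnot3*-cKO bins.

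**Figure D3:**
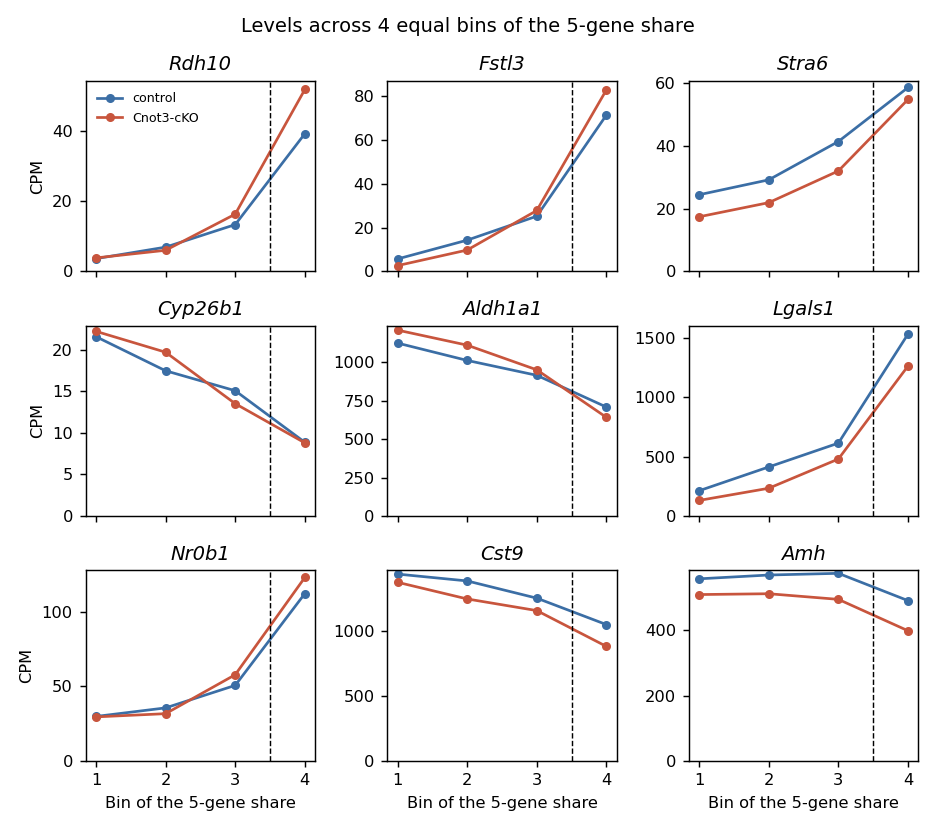
Level (vertical axis, CPM, each panel from 0) of 9 genes in the 4 bins of the 5-gene share (horizontal axis), for each library. The dashed line divides *Tnni3*-poor (bins 1 to 3) from *Tnni3*-rich cells, and in both libraries *Rdh10*, *Fstl3*, *Stra6*, *Lgals1* and *Nr0b1* climb from bin to bin while *Cyp26b1*, *Aldh1a1* and *Cst9* decline.

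Between genotypes, *Tnni3*-poor cells were alike for most genes. A gene was compared when both libraries together held 200 UMIs or more of it, and was called higher or lower when its log2 ratio of *Cnot3*-cKO over control passed 0.32 in size. Of 10509 genes, 433 (4.12%) were higher and 255 (2.43%) were lower. With all ratios centred on their median, 344 were higher and 319 lower. The median log2 ratio of *Cnot3*-cKO over control was 0.03, and the central 90% of genes lay between -0.22 and 0.30. *Cnot3* itself stood at 62.4 CPM in control and 63.3 CPM in *Cnot3*-cKO (log2 ratio 0.02, interval -0.07 to 0.12), while in germ cells, where the Cre is made, the ratio was -0.86 (-0.97 to -0.76). The other 10 CCR4-NOT subunits lay between -0.17 and 0.15. The lowest ratios included those of several antigen presentation genes and of *Sp5*, a gene of the Wnt pathway. *Igfbp7*, *Gm47101* and *Clasrp*, of neither group, were also among the lowest. Higher genes with many UMIs included immediate early genes, *Gja1*, *Gdnf*, *Serpina5* and *Ctsl*.

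**Figure D4:**
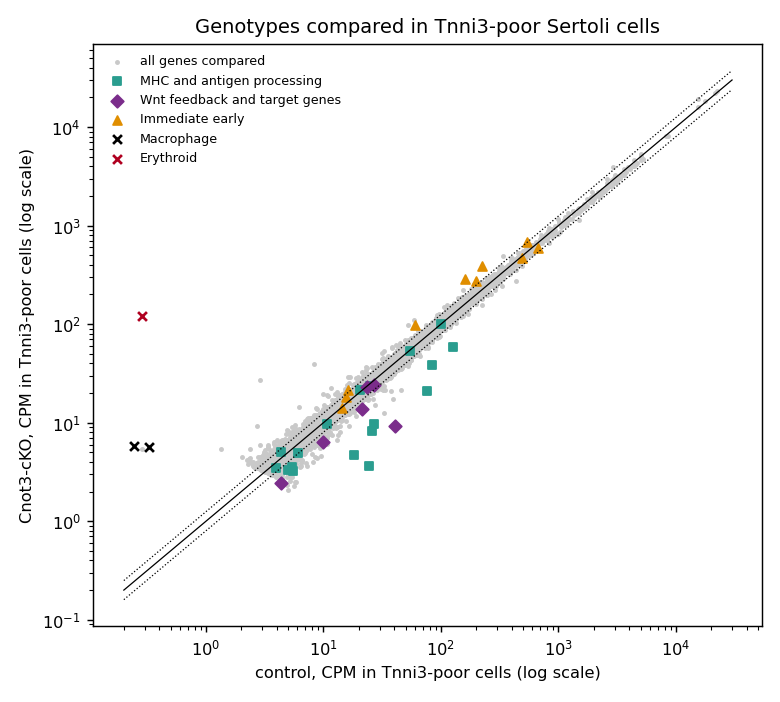
CPM in *Tnni3*-poor cells of the control (horizontal axis, log scale) and *Cnot3*-cKO library (vertical axis, log scale) for each gene compared that was above 0 in both, with equality as a solid line and the 0.32 limit on the log2 ratio as dotted lines. Of the antigen presentation genes 10 of 18 lie, with *Sp5*, below the lines, 6 of 10 immediate early genes above them, and the macrophage genes *C1qa* and *C1qb* and the hemoglobin gene *Hbb-bs* far above at low control levels.

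Class I molecules of the major histocompatibility complex (MHC) show peptides of the cell's own proteins at the surface. Their classical heavy chain genes *H2-D1* and *H2-K1* and the light chain gene *B2m* were lower in *Cnot3*-cKO. Of other class I genes, *H2-Q4*, with 131 control and 136 *Cnot3*-cKO UMIs, was past the limit lower too. *H2-T22* (0.07) and *H2-T23* (0.22, at 4.34 and 5.06 CPM) did not pass it. *H2-D1* stood at 76.2 CPM (72.8 to 79.7) in control and 21.1 CPM (19.7 to 22.6) in *Cnot3*-cKO (log2 ratio -1.85, interval -1.97 to -1.73). *H2-K1* stood at 84.4 and 38.7 CPM, with -1.12 (-1.22 to -1.03). *B2m*, the light chain that all class I molecules share, stood at 126 and 58.4 CPM, with -1.10 (-1.18 to -1.02). The class II genes *H2-Aa*, *H2-Ab1* and *H2-Eb1* were lower by -1.95, -1.48 and -1.64, and *Cd74*, the class II invariant chain, by -2.74. Class II levels were low, 18.2 to 27.2 CPM for these 4 genes in control, and partly came from few cells. In control, 1 cell held 355 of the 601 *Cd74* UMIs and 186 of the 444 *H2-Aa* UMIs, whereas the highest cell for *H2-D1* held 40 of 1862. Of 22 genes of MHC and antigen processing, a list drawn up after the values were seen, 18 were compared, 10 were lower and 0 higher, with a median log2 ratio of -0.60. Over all genes compared, 2.43% were lower and 4.12% higher. *Tapbp* and *Psmb10* lay at 0.00 and -0.07. The ratios of *H2-D1* and *B2m* were -2.02 and -1.30 in *Tnni3*-rich cells, -1.64 and -1.01 in cycling Sertoli cells, -0.84 and -0.30 in interstitial cells and 0.17 and 0.10 in germ cells. Those of *H2-Ab1* were -0.64, -0.53, -2.11 and 0.74 in the same order. Leaving out cells with UMIs of other types (5 or more of the erythroid, macrophage, endothelial or myoid markers) gave -1.98 for *H2-D1* and -1.16 for *B2m*. It did not remove the control cell highest in *Cd74*, which also held 150 *H2-Ab1* and 133 *H2-Eb1* UMIs. Without that 1 cell the ratios were -1.46 for *Cd74*, -1.17 for *H2-Aa*, -1.11 for *H2-Ab1* and -1.30 for *H2-Eb1*, and -1.84 for *H2-D1*. The list then still had 10 genes lower of 18, with a median of -0.48.

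The promoters of *H2-D1*, *H2-K1* and *B2m* are shown because these 3 genes stood lower together. They are the 250 bases before and 50 after the RefSeq transcription start in GRCm38.p6, and capitals mark matches, on either strand, to GAAA followed by any 2 bases and GAAA (the core of the interferon response element), GGGATTCC (a kB site core) or CTGATTGG (a Y box). *H2-D1* lies at chr17:35262844-35263143 (plus strand), *H2-K1* at chr17:34000284-34000583 (minus strand) and *B2m* at chr2:122147437-122147736 (plus strand).
H2-D1: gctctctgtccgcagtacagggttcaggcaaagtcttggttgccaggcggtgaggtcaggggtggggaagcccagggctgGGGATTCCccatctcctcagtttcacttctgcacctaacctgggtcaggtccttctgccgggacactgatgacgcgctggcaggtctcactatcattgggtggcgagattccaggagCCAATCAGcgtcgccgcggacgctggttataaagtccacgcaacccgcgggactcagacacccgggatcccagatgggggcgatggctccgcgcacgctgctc
H2-K1: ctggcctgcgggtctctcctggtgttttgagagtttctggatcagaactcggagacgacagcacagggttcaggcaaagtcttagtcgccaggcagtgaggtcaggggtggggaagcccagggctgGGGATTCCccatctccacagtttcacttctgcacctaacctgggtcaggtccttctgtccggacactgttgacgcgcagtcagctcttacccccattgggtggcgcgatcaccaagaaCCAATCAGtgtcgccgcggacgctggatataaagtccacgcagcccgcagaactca
B2m: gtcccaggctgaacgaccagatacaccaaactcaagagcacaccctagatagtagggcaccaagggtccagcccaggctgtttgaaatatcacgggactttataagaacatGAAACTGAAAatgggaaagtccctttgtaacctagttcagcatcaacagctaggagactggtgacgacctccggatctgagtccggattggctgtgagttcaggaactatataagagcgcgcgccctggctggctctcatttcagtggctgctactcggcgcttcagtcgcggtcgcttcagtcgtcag
The kB core occurred in the *H2-D1* and *H2-K1* promoters and the Y box core, read on the opposite strand, in both as well. The interferon core as spelled above occurred in the *B2m* promoter. Other spellings of the interferon response element were not searched. The lack of a match in *H2-D1* and *H2-K1* therefore does not show that they lack it. Of 32851 RefSeq promoters of this length, 1.06% held the kB core, 4.10% the Y box and 3.44% the interferon core. Letters that match are a description of the sequence, and binding was not measured.

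Of the Wnt pathway, *Sp5*, a transcription factor gene switched on by beta-catenin, had the lowest ratio of all genes compared after *Cd74*, and the lowest without the control cell highest in *Cd74*. It stood at 40.3 CPM (37.8 to 42.9) in control and 9.15 CPM (8.22 to 10.2) in *Cnot3*-cKO (log2 ratio -2.14, interval -2.32 to -1.96), and no cell held over 10 of its UMIs. Its level in interstitial cells was 0.588 and 0.329 CPM. The ratio was -2.05 in *Tnni3*-rich and -1.97 in cycling Sertoli cells. *Axin2*, a negative feedback gene of the pathway, stood at 21.4 and 13.9 CPM with -0.63 (-0.80 to -0.45), *Wif1*, a secreted inhibitor of Wnt ligands, at 9.86 and 6.31 CPM with -0.64, and *Lgr5*, the R-spondin receptor gene, at 4.38 and 2.42 CPM with -0.85. *Znrf3* and *Tcf7* stood at -0.04 and -0.15. This list of 11 was also drawn up after the values were seen, and 4 of the 6 genes compared were lower and 0 higher. Of all genes compared, 2.43% were lower and 4.12% higher. The *Sp5* promoter, at chr2:70474673-70474972 (plus strand, GRCm38.p6), is shown with its match to CTTTGAT, a TCF/LEF core held by 3.73% of promoters, in capitals.
Sp5: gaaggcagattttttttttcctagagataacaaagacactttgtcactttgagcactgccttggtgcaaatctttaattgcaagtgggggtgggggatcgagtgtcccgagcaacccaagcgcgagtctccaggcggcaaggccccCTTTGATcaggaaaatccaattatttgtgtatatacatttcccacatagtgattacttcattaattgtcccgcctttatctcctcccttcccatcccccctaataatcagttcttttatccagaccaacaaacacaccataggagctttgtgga

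Immediate early genes, which respond within minutes to growth factors and to stress, stood higher in *Cnot3*-cKO for 6 of the 10 listed, against 4.12% of all genes compared. Their median log2 ratio was 0.38. *Fosb* was at 0.82, *Fos* at 0.78, *Nr4a1* at 0.69, *Junb* at 0.47, *Zfp36* at 0.42 and *Egr1* at 0.33. With free RNA subtracted, *Zfp36* (0.29) and *Egr1* (0.30) came under the limit and the other 4 did not. With *Uchl1* left out of the free RNA estimate, only *Egr1* came under it. *Fos* stood at 224 CPM in control and 386 CPM in *Cnot3*-cKO. *Jun*, *Ier2* and *Atf3* lay at -0.19, -0.05 and -0.04 and *Dusp1* at 0.24. The same genes were higher outside the Sertoli cells. *Fos* stood at 103 and 534 CPM in interstitial cells, a ratio of 2.38, and at 125 and 422 CPM in empty barcodes. Whether handling of the suspensions had a part in this was not tested.

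Among products that reach germ cells or neighbouring Sertoli cells, *Gdnf*, the ligand that maintains spermatogonial stem cells, stood at 21.2 CPM (19.4 to 23.1) in control and 32.6 CPM (30.9 to 34.5) in *Cnot3*-cKO (log2 ratio 0.63, interval 0.48 to 0.78). It was the 1 gene past the limit of 9 niche factors compared. *Kitl*, the ligand of KIT, stood at 400 and 467 CPM (0.23), *Inha* at 715 and 808 CPM (0.18) and *Inhbb* at 207 and 229 CPM (0.15). *Gja1*, the gap junction protein connexin 43, stood at 334 and 491 CPM with 0.56 (0.52 to 0.59) and was the 1 gene past the limit of 13 junction genes compared. Among all genes, 4.12% were higher and 2.43% lower, so 1 gene past the limit does not set lists of this size apart. *Serpina5* stood at 59.3 and 110 CPM with 0.89 (0.81 to 0.98), and the lysosomal protease gene *Ctsl* at 2899 and 3956 CPM with 0.45 (0.44 to 0.46). *Sparc*, a matrix glycoprotein, was lower at 1508 and 1137 CPM with -0.41. In *Tnni3*-rich cells the ratios were 0.07 for *Gdnf* (-0.22 to 0.36), 0.38 for *Serpina5*, 0.35 for *Gja1* and 0.39 for *Ctsl*. The difference from *Tnni3*-poor cells was not tested.

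Some of these genes also grade with the 5-gene share, on which the libraries differed. Within the bins, *Serpina5* stood at 65.5 and 125 CPM in the first, 62.2 and 109 in the second and 52.1 and 93.7 in the third. *Lgals1*, with a ratio of -0.68 over all *Tnni3*-poor cells, stood at 213 and 132, 413 and 234, and 613 and 479 CPM. *Stra6*, with -0.47, stood at 24.4 and 17.4, 29.1 and 21.9, and 41.3 and 32.0 CPM. For these 3 genes the order of the libraries was the same in each bin as over all *Tnni3*-poor cells. Of the 12 genes furthest higher in *Tnni3*-poor cells, 5 were also higher in *Cnot3*-cKO, namely *Pcdh9* (0.83), *1110032F04Rik* (0.71), *Fam155a* (0.50), *Stom* (0.45) and *Fras1* (0.43). Of the 12 furthest lower, *Lgals1*, *Coro2a* (-0.68) and *Fstl3* (-0.34) were lower and *Phactr1* (0.43) was higher. Over all genes compared between genotypes, 4.12% were higher and 2.43% lower. How far the position of the cells on the share had a part in these ratios was not tested.

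**Figure D5:**
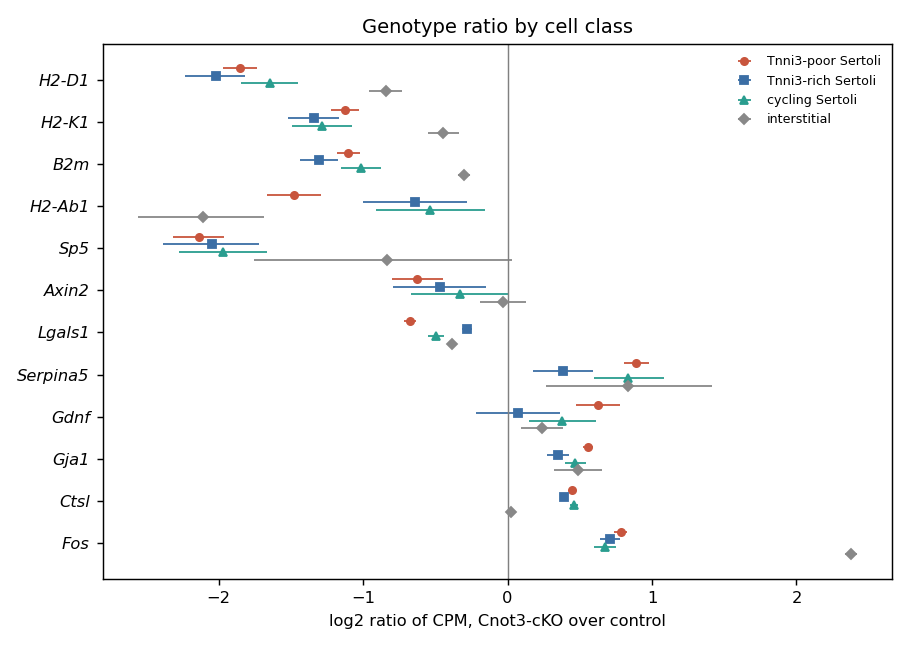
Log2 ratio of CPM, *Cnot3*-cKO over control (horizontal axis), of 12 genes in *Tnni3*-poor, *Tnni3*-rich and cycling Sertoli cells and in interstitial cells, with 95% counting intervals as bars. *H2-D1*, *H2-K1*, *B2m* and *Sp5* lie under -1 in all 3 Sertoli classes, and *Fos* is highest in interstitial cells at 2.38.

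The remaining lists had median log2 ratios in *Tnni3*-poor cells between -0.14 (Notch and hedgehog) and 0.06 (phagocytosis and lysosome). The median of all genes compared was 0.03, and 4.12% of them were higher and 2.43% lower. Of 16 identity genes, *Hsd17b1* was past the limit higher, at 193 and 255 CPM (0.41), and *Krt18*, a keratin, past it lower, at 32.0 and 21.3 CPM (-0.59). *Amh* stood at 568 and 506 CPM (-0.17), *Wt1* at 387 and 322 CPM (-0.26) and *Sox9* at 522 and 488 CPM (-0.10). None of 11 glutathione genes passed the limit of 0.32. Their ratios lay between -0.27 and 0.08, and *Gstm1* and *Gstm2*, with 2326 and 2281 CPM and 2342 and 2146 CPM, were among the most abundant genes of these cells. None of 9 glucose and lactate genes and none of 5 maturation genes passed. Of 12 phagocytosis and lysosome genes, *Pros1*, a ligand that bridges dying cells to TAM receptors, was higher at 5.48 and 7.92 CPM (0.53). Of 8 retinoid genes, *Stra6* was lower and the rest did not pass. Of 9 cell cycle genes, *Pcna* was lower (-0.34) and *Ccnb1* higher (0.41, at 3.11 and 4.14 CPM), with a median over the list of -0.12. Neither call was firm, since *Pcna* came to -0.28 with a mitochondrial limit of 10% and *Ccnb1* to -0.008 at 12000 UMIs or more per cell. None of 5 Notch and hedgehog genes passed, with *Hes1* at -0.29.

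Several of the highest genotype ratios came from very few cells. *Hba-a1*, *Hba-a2* and *Hbb-bt* held 0 UMIs in control, and with 3 counts allowed for the control library they were at least 425-, 296- and 244-fold higher in *Cnot3*-cKO. *Hbb-bs* had 7 and 4675 UMIs, of which 1 *Cnot3*-cKO cell held 4645. *C1qa*, *C1qb* and *Pf4*, of macrophages and platelets, had log2 ratios of 4.58, 4.10 and 4.24. Their highest cells held 78 of 225, 78 of 215 and 110 of 207 UMIs. Of the macrophage list, 3 *Cnot3*-cKO and 0 control cells held 5 or more UMIs, and of the myoid list 62 and 3. Summed levels in control and *Cnot3*-cKO *Tnni3*-poor cells were 1.47 and 15.3 CPM for macrophage markers, 0.286 and 240 for erythroid, 15.8 and 52.3 for myoid, 84.1 and 102 for stroma, 17.8 and 9.25 for endothelial, 9.53 and 12.7 for Leydig, 3.805 and 2.97 for T cell and 42.6 and 34.6 for germ markers. The 8 control and 68 *Cnot3*-cKO cells with 5 or more UMIs of the erythroid, macrophage, endothelial or myoid lists were 76 of the 4720. Without them *Tagln*, a smooth muscle gene with a ratio of 3.25, stood at 1.005, *Apoe* went from 2.24 to 0.26 and *Igfbp7* from -1.37 to -0.15, while *Eln*, *Lyz2* and *C1qb*, at 1.75, 2.01 and 4.10, turned to -0.47, -0.49 and -0.03. Without the control cell highest in *Cd74* alone, *Lyz2* came to 3.14.

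The remaining genes with the highest or lowest interval limits were spread over many cells. *Cnmd*, which encodes chondromodulin, stood at 6.22 and 14.3 CPM with a ratio of 1.21 (0.94 to 1.47), in 113 control and 373 *Cnot3*-cKO cells. *Clasrp*, a splicing regulator, stood at 45.9 and 21.3 CPM (-1.11) and was at -0.88 to -1.09 in the 4 other classes. The long non-coding gene *Gm47101* stood at 38.9 and 17.3 CPM (-1.17).

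Among themselves, *Tnni3*-poor cells had their highest ratio of variance to mean in *Malat1*, a nuclear RNA. Genes were ranked by the smaller of both libraries' ratios. At the same relative spread this ratio is larger for abundant genes, so the ranking favours them and does not order genes by relative spread. In control, *Malat1* held 379918 UMIs and *Hist1h2bc*, named below, 1051. Genes under a mean of 0.05 UMIs per cell in either library were left out, and genes with their UMIs in few cells of 1 library, such as *Cd74* in control (39.6) and *Apoe* in *Cnot3*-cKO (74.9), had higher ratios there. After each cell was thinned to 8000 UMIs, the variance of *Malat1* was 19.2 times the mean in control and 20.9 times in *Cnot3*-cKO, where counting alone gives 1. *Tmsb4x*, which encodes the actin-binding thymosin beta-4, followed with 9.49 and 8.08, then the histone gene *Hist1h2bc* with 7.85 and 7.61. For *Tmsb4x*, the highest cell before thinning held 651 of 12988 UMIs in control and 556 of 18865 in *Cnot3*-cKO. How much these cells added to its ratios was not tested. *Lgals1* had 6.41 and 6.75 and *Fos* 4.65 and 5.26. The mitochondrial genes *mt-Co1*, *mt-Co2*, *mt-Co3* and *mt-Atp6* lay between 4.51 and 7.27. The remaining 3 of the 12 were *Jun*, *Gm42418*, with up to 1015 and 758 UMIs in its highest cells, and *Gm35533*. *Gm42418* overlaps ribosomal RNA sequence, and *Gm35533* was also among the 12 genes that set these cells apart from other cell types. *Lgals1*, *Tmsb4x* and *Hist1h2bc* were lower in *Tnni3*-poor than in *Tnni3*-rich cells as well, with log2 ratios of -1.81, -0.76 and -1.32 in control.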

How the data were processed

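Cells from testes of control and *Cnot3*-cKO mice were profiled with the 10x Genomics 3′ kit. From the reads the authors made unnormalized UMI counts (Cell Ranger 3.0.1 per the file headers), deposited as 1 matrix per genotype over all barcodes, each a merge of 2 labelled samples. UMIs of each class were summed per library and scaled to CPM. Levels between genes are per UMI of a 3′ assay and were not scaled by length. Log2 ratios have exact conditional, CPM exact Poisson and shares Clopper-Pearson 95% intervals (scipy 1.17.1, numpy 2.4.6, pandas 2.3.3, Python 3.11.15). With 1 library per genotype there was no test. Genes with at least 200 UMIs were called past a log2 ratio of 0.32 (genotypes) or past 1.5-fold (classes). A count of 0 was read as up to 3 counts. Interstitial cells needed at least 0.3% collagen UMIs, and germ cells at least 10 UMIs of *Ddx4* and *Dazl*. Empty barcodes held at most 100 UMIs. Doublets stayed in, and Scrublet (scanpy 1.11.5) called 5.95% and 4.86% of barcodes. Symbols and positions came from GENCODE M21 (GRCm38), matched by ID for 99.8% of 30828 genes. The members and lists were chosen with earlier results of these data known. Besides listed genes, the 12 at each end of both comparisons and the 12 highest over other cells are named. So are the 12 with the highest ratio of variance to mean. A few genes that the rule names are not reported here.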

Additional observations from a re-analysis of the deposited data

Results flagged for a closer look

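*Igfbp7*, which encodes a secreted binding protein abundant in interstitial cells, had genotype log2 ratios of opposite sign in both non-cycling classes. The ratio of *Cnot3*-cKO over control was -1.37 in *Tnni3*-poor cells and 0.51 in *Tnni3*-rich cells, with intervals that left out 0. The difference was not tested. The *Tnni3*-poor cells held 799 control and 486 *Cnot3*-cKO UMIs of it, with 165 and 44 in the highest cells. Interstitial cells stood at 1602.5 and 1662 CPM. The ratio in *Tnni3*-poor cells was -0.035 without Scrublet doublets and -0.148 without cells holding markers of other types. *Rhox5*, an X-linked homeobox gene of Sertoli cells, had a ratio of -1.61 in *Tnni3*-poor cells and 3.11 in cycling Sertoli cells, which was not tested either. It rested on 33 control and 17 *Cnot3*-cKO UMIs in *Tnni3*-poor cells, in 8 and 7 cells, under the 200 UMIs set for a comparison.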

How the results depend on the processing

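With 1 library per genotype no replicate could be left out. No paired analysis was possible because each matrix merges both samples of a genotype and no result comes from a test. A mitochondrial limit of 10% left 827 control and 1109 *Cnot3*-cKO members, a depth limit of 12000 UMIs 1189 and 1776, and the lower 50% of the share 1128 in control. Shares of non-cycling Sertoli cells became 45.54% and 52.89% with the lower 50%, and 75.01% in both with a limit per library. Genes past 0.32 between genotypes numbered 123 higher and 80 lower at 1000 UMIs, and 2239 and 1758 with no filter. Genes past 1.5-fold higher in *Tnni3*-poor cells numbered 31 with the 10% mitochondrial limit, 29 with the lower 50%, 17 at 1000 UMIs and 471 with no filter. Lower genes numbered 74 with the 10% limit, 40 at 1000 UMIs and 582 with no filter. The median log2 ratio lay between 0.0245 and 0.0392 under the alternatives that keep the scale. Of 31 named genes past 1.5-fold between classes, 27 stayed past it with the lower 50%, and *Notch1*, *Stom*, *Fry* and *Serpina5* did not. *Stom* also came under it with the 10% mitochondrial limit. With that limit, 20 of the 47 named genotype ratios moved by more than their counting error, *Gdnf* to 0.445. Of 47 named genes past 0.32, 40 stayed past it without cells holding other types' markers, and 43 to 47 under the others. That alternative, the one without the control cell highest in *Cd74* and the free RNA estimate without *Uchl1* were chosen after the data were seen. There *C1qb*, *Eln* and *Lyz2* turned to -0.034, -0.469 and -0.493, and *Ccnb1* turned to -0.008 at 12000 UMIs. The cause was not tested. *Egr1* came under 0.32 with centring, with free RNA subtracted, with the lower 50% and at 12000 UMIs.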

Other observations

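Genotype ratios were also read along the chromosomes. Windows of 15 neighbouring genes were compared over 10209 positions in *Tnni3*-poor cells, after the values were seen and with no test. Among all genes compared, 4.12% were higher and 2.43% lower. The window with the median furthest from 0 lay on chromosome 14, from 79397772 to 100284679 (GRCm38), with a median log2 ratio of 0.63 and 9 of 15 genes higher in *Cnot3*-cKO. It held *Pcdh9*, *Diaph3*, *Tdrd3*, *Mzt1*, *Bora*, *Dis3*, *Pibf1*, *Klf12* and *Cnmd*. Its median was 0.43 in *Tnni3*-rich, 0.46 in cycling Sertoli, 0.22 in interstitial and 0.20 in germ cells. The next, with no overlap, lay on chromosome 15 from 99778470 to 101274795, with a median of 0.31, 7 genes higher and 1 lower. It held *Nr4a1*, an immediate early gene named above. Then came a window on chromosome 13, from 46749087 to 49248706, with a median of 0.21 and 5 of 15 genes higher. The window after it lay on chromosome 17, from 33951999 to 34316674, and holds *H2-K1*, *Tap1*, *Psmb9* and the class II genes. Its median was -0.21 with 6 of 15 genes lower and 0 higher. Away from that window, *Slc38a9*, an arginine sensor of the lysosome and a neighbour of *Ddx4*, stood at 52.5 CPM in control and 98.9 CPM in *Cnot3*-cKO *Tnni3*-poor cells (log2 ratio 0.91, interval 0.82 to 1.01), and at 26.9 and 75 CPM in interstitial cells.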
